A study of Mus musculus with 12 samples.

Results

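Mural cells are the contractile cells that wrap blood vessels. Smooth muscle cells ring arteries and arterioles and carry an actin and myosin apparatus that sets vessel diameter, while pericytes sit on capillaries and are held there by PDGF-B, which endothelial cells release and the pericyte receptor PDGFRB binds. The retina is among the tissues in which pericytes lie most densely on capillaries, and loss of them is a known early change in diabetic retinopathy. The 10 genes described here are listed mural cell genes that were found by Entrez ID in the raw counts of all 12 libraries, out of 27179 gene IDs in the series. Of the 10, 4 encode parts of the smooth muscle contractile apparatus (Acta2, Tagln, Myh11 and Cnn1), 5 mark capillary pericytes (Pdgfrb, Rgs5, Cspg4, Kcnj8 and Abcc9), and Notch3 marks both.

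The libraries were made from retina of mice with a glial knockout of Abca1, a transporter that exports cholesterol and phospholipids from cells, and of control mice. The 4 groups were KO at 12 months, control at 12 months, KO at 3 months and control at 3 months, with 3 libraries in each. The genotype label reads Glia-ABCA1KO, the protocol text names Astro-KO mice, and the sources used here do not give the driver of the deletion, the strain or the alleles that the controls carry. The labels leave unsaid whether replicate libraries are separate animals, and p-values therefore measure the spread of these libraries, part of which may be technical.

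Library totals ran from 29027099 to 30438026 counts. The 10 neural retina markers, among them rhodopsin, summed to between 51820 and 61560 scaled counts (CPM) in every library, and the 14 endothelial markers to between 315.0 and 352.2 CPM. The mural genes were scarce beside these. The 4 contractile genes together held 363 to 763 counts per library and the 5 pericyte genes 898 to 1464. Abca1 itself was not lower in KO retina, with 36.3 ± 7.91 CPM in KO and 30.8 ± 2.66 CPM in control at 12 months, and 26.3 ± 1.78 CPM in KO and 22.7 ± 3.34 CPM in control at 3 months (SD, n = 3 each). The count covers all exons and all cells of the retina, so it checks a deletion in glia only in part. Xist, a transcript of the inactive X, lay between 52.3 and 85.5 CPM in 12-month KO retina and between 0.167 and 0.203 CPM in 12-month control retina. It lay between 0.0686 and 0.609 CPM in 3-month KO and between 0.201 and 0.272 CPM in 3-month control retina. The Y-linked gene Eif2s3y lay between 59.2 and 71.4 CPM in 12-month KO and between 57.9 and 62.6 CPM in 12-month control retina. The part of Xist's high level in 12-month KO retina in the 12-month comparison, in the age comparison in KO retina and in the difference of KO effects between ages was not tested.

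A pair of libraries stood apart from their replicates. The squared differences of counts between 3-month control replicate 2 and its replicates were 43.1 and 41.9 times the counting variance, against 4.19 between the other two. For 12-month KO replicate 1 they were 21.6 and 24.9 times, against 5.16. In 3-month control replicate 2 the 12 lens markers summed to 4121 CPM, against 9.24 to 158 CPM in the other 11 libraries. The same library had the highest sum of the pigment epithelium and melanocyte markers, at 201 CPM against at most 168 CPM. Its sums of the cornea and conjunctiva markers, 31.6 CPM, and of the iris and ciliary body markers, 56.2 CPM, were also the highest, but each through 1 gene, Aldh3a1 at 27.3 CPM and Nupr1 at 15.4 CPM, which had at most 1.21 and 5.30 CPM elsewhere. All 3 control libraries of 3 months carried skeletal muscle transcripts, with a sum over 12 markers of 97.3 to 111 CPM, against 12.4 to 18.8 CPM in the other 9 libraries. Iris and ciliary body hold smooth muscle of their own, and the extraocular muscles are skeletal. The part of these tissues in the mural values was not tested. Fold changes of members that use 3-month control retina are also given without its replicate 2.

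The promoters of 7 of the 10 genes were matched in the RefSeq table of GRCm38.p6. The stretches shown are the 250 bases before the start of Rgs5, the one gene that passed a test between groups, and the only places in the 7 windows that resemble the CArG box bound by serum response factor, the activator of contractile genes. They are written 5′ to 3′ on the strand of the gene. Rgs5 is at chr1:169655251-169655500 on the plus strand. The Acta2 stretches are at chr19:34255438-34255467 and chr19:34255388-34255417 on the minus strand, and the capitals mark the CArG-like match, in which 1 central base is G or C.
Rgs5: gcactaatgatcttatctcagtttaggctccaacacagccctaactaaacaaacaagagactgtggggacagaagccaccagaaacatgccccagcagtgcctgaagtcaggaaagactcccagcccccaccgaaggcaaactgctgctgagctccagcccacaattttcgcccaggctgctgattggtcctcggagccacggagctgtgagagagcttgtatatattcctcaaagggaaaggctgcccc
Acta2, distal: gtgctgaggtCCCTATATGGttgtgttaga
Acta2, proximal: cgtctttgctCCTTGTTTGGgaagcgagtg
GENCODE M21 places both Acta2 stretches inside an annotated exon of Acta2. Their matches began 84 and 34 bases before the start that the promoter window of Acta2 used. RefSeq places the outer end of Acta2 farther out, at base 34255585, so both stretches lie inside the gene. On both strands of the 250-base windows, the strict CArG box was found in none of the 7 genes and in 1.47% of 32841 promoters, and the CArG-like form in Acta2 alone and in 7.24% of promoters. TGGGAA, the core bound by RBPJ, which carries the Notch signal to DNA, was found in Acta2, where it overlaps the proximal match, and in Abcc9, against 21.6% of promoters. A match is a description of the letters only.

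Per kilobase of exon (the union of all GENCODE exons), the members ranked over the 12 libraries as Pdgfrb at 4.00 CPM per kb, Tagln at 3.36, Acta2 at 2.28, Rgs5 at 1.76, Notch3 at 1.35, Kcnj8 at 1.06, Abcc9 at 0.611, Myh11 at 0.424, Cspg4 at 0.239 and Cnn1 at 0.0411. Every pair of neighbours in this order overlapped in its range over the 12 libraries, but the overlap of Tagln with Acta2 rested on 3-month control replicate 2 (elsewhere Acta2 reached 2.65 and Tagln began at 2.91) and that of Cspg4 with Cnn1 on 12-month KO replicate 1. The contractile genes were therefore not one level: Tagln, which encodes the actin-binding protein transgelin, stood near the top, and Cnn1, which encodes the actin-binding protein calponin, had between 0 and 8 counts in a library. Cnn1 was too low to be tested between groups, and the other 9 members were.

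**Figure D1:**
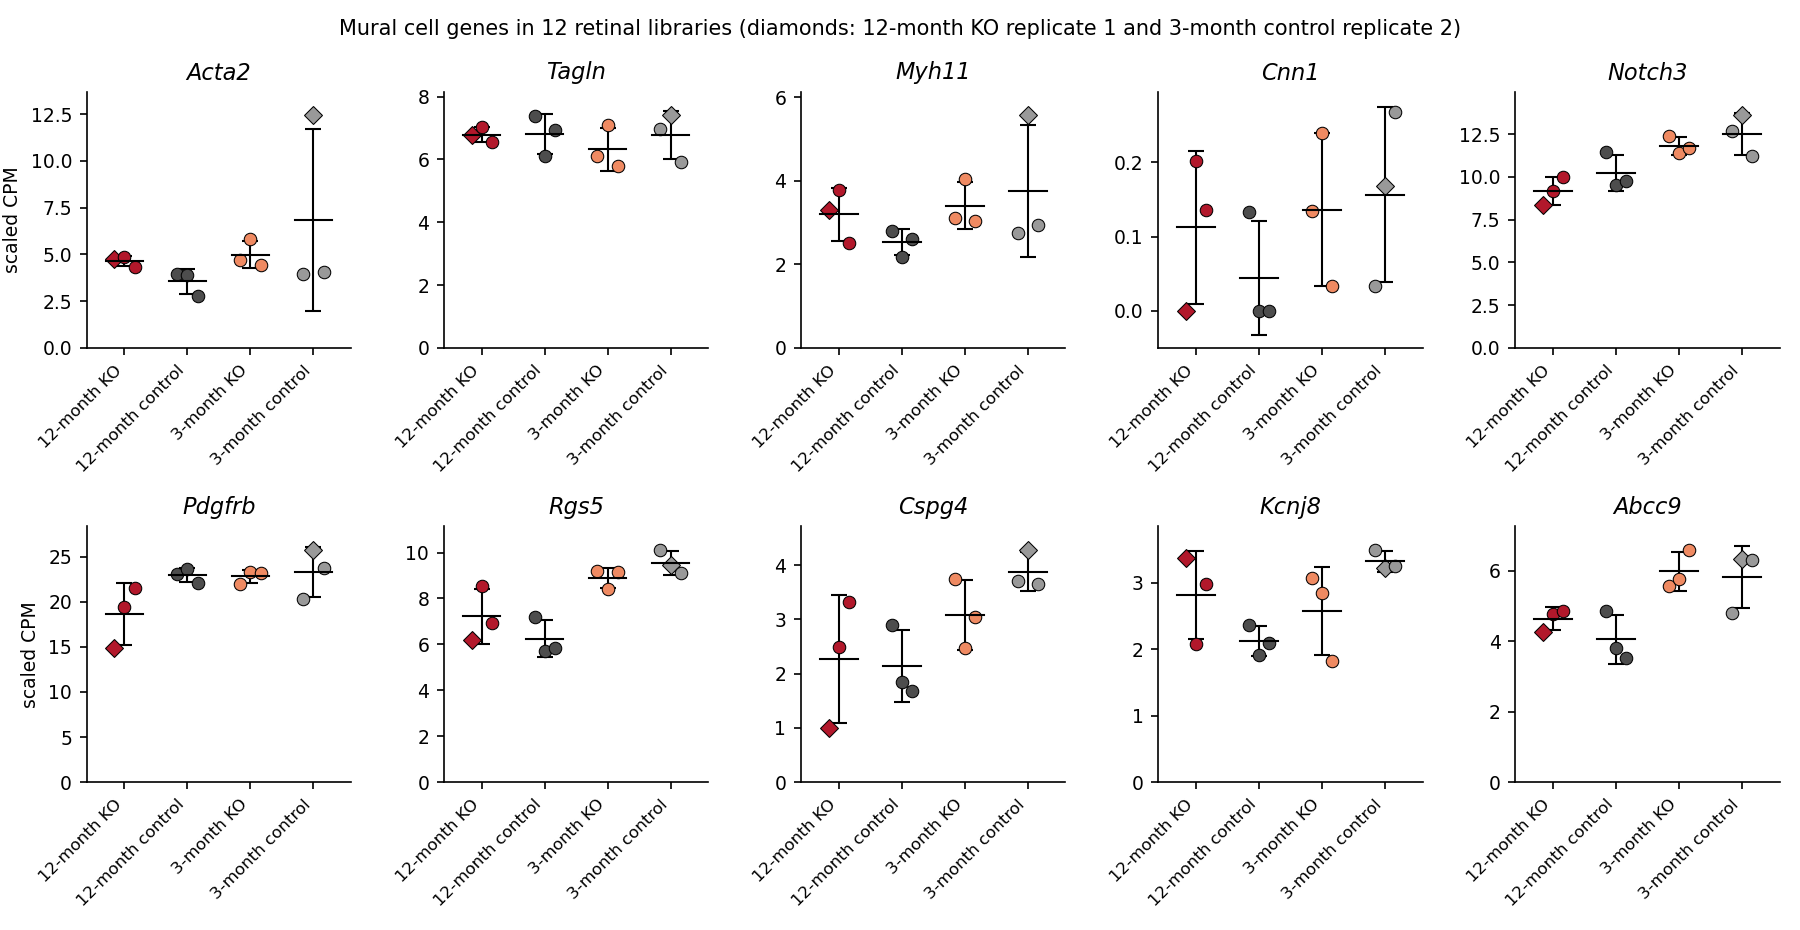
Scaled CPM (y axis, linear) of the 10 mural cell genes in each of the 12 libraries, by group (x axis). Points are libraries, horizontal lines are group means and bars are SD (n = 3), and diamonds mark 12-month KO replicate 1 and 3-month control replicate 2. Acta2 reached 12.4 CPM in 3-month control replicate 2 and 5.83 CPM at most elsewhere.

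Among the contractile genes, the level of Acta2 was set by 1 library. Acta2 encodes smooth muscle actin. It had 4.76, 4.88 and 4.35 CPM in 12-month KO retina, 3.97, 3.90 and 2.80 CPM in 12-month control, 4.72, 5.83 and 4.43 CPM in 3-month KO, and 3.98, 12.4 and 4.08 CPM in 3-month control. The 12.4 CPM of 3-month control replicate 2 was 3.09 times the mean of its replicates. Myh11, the smooth muscle myosin heavy chain, had 3.30, 3.77 and 2.51 CPM in 12-month KO, 2.80, 2.19 and 2.60 CPM in 12-month control, 3.10, 4.05 and 3.04 CPM in 3-month KO, and 2.75, 5.56 and 2.95 CPM in 3-month control. It was again highest in that library, at 1.95 times its replicates. Tagln was highest there only by little, at 7.407 CPM against at most 7.378 CPM elsewhere, and at 1.15 times its replicates. It stayed between 5.78 and 7.41 CPM in all 12 libraries, and its groups overlapped in every comparison.

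The pericyte genes were spread over the libraries differently from Acta2 and Myh11. In 3-month control replicate 2 they lay between 0.954 times (Kcnj8) and 1.17 times (Pdgfrb and Cspg4) the mean of its replicates. The sum of the 5 pericyte genes was highest there, at 49.1 CPM against at most 46.0 CPM elsewhere. Pdgfrb and Cspg4 were also highest there, at 25.8 and 4.29 CPM against at most 23.7 and 3.75 CPM. Rgs5, Kcnj8 and Abcc9 were not. The lowest libraries of the pericyte genes differed. Cspg4, which encodes the proteoglycan NG2, and Pdgfrb were lowest in 12-month KO replicate 1, at 0.341 times (on 30 counts) and 0.724 times their replicates. Rgs5 and Abcc9 were lowest in 12-month control replicates 2 and 3, and were at 0.803 and 0.885 times in that KO library. Kcnj8 was at 1.33 times there and lowest in 3-month KO replicate 3. Acta2 and Tagln in 12-month KO replicate 1 were at 1.03 and 0.997 times theirs. The sum of the 14 endothelial markers was also lowest there, at 315.0 CPM, of which Kdr and Flt1 held 143 and 57.4 CPM. The single markers did not move as one. Kdr, Flt1 and Ptprb were lower there than in both other 12-month KO libraries, and Pecam1, Cldn5, Egfl7 and Eng were higher.

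Between KO and control retina at 12 months, no mural gene passed the test, in which edgeR's quasi-likelihood p was adjusted by Benjamini-Hochberg over 16475 genes and called below 0.05. The same test called 0.212% of all genes, and DESeq2 and voom called 0 members here and in the 3 other comparisons without a call. Before adjustment 1 of 9 tested members had a p below 0.05, with KO lower, against 4.9% of all genes. Pdgfrb, the receptor that anchors pericytes, came nearest. It had 14.8, 19.4 and 21.5 CPM in KO and 23.1, 23.6 and 22.1 CPM in control retina. All KO libraries lay below all control libraries, the highest KO library by little. The log2 fold change was -0.30 ± 0.12 (SE), with adjusted p = 0.504, and p was 0.0222 before adjustment. Without 12-month KO replicate 1 the change was -0.16 ± 0.11, with an unadjusted p of 0.151. Groups that did not overlap, with KO lower, were seen for 8.33% of all genes. The log2 fold changes of Kcnj8, Rgs5, Abcc9 and Cspg4 ran from 0.08 to 0.40, and that of Cspg4 moved between -0.30 and 0.44 when 1 library was left out. Acta2 was higher in all KO than in all control libraries, as were 8.32% of all genes. Its log2 fold change was 0.39 ± 0.38 with adjusted p = 0.797. When 3-month control replicate 2, a library outside this comparison, was left out of the fit, it was 0.39 ± 0.18. The unadjusted p was then 0.0402 and the adjusted p 0.327. In that fit 1 member was higher and 1 lower before adjustment, as were 1181 and 1165 of 16707 genes. In the authors' deposited table for this comparison, the adjusted p was below 0.05 for 0.636% of the genes that have one and for 0 of the 9 members that have one, Cnn1 having none, and Pdgfrb had an adjusted p of 0.523.

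At 3 months no member differed between KO and control either, where 0.225% of all genes were called, and 0 of 9 had an unadjusted p below 0.05 by edgeR, against 7.5% of all genes. With all libraries the 3 tested contractile genes had negative fold changes, -0.45 for Acta2, -0.14 for Myh11 and -0.10 for Tagln on the log2 scale. Without 3-month control replicate 2, Acta2 turned to 0.31 and Myh11 to 0.25, and Tagln was -0.03. None was called in either setting (0.221% of all genes were without that library), with adjusted p = 0.741 with and 1.0 without that library for Acta2. Kcnj8 encodes the pore of the pericyte potassium channel that opens when ATP is low, and Abcc9, its neighbour on chromosome 6 at a distance of 16247 bases, encodes the regulatory subunit. Kcnj8 had 3.07, 2.85 and 1.83 CPM in KO and 3.50, 3.22 and 3.25 CPM in control retina, with a log2 fold change of -0.36 ± 0.23 and adjusted p = 0.695, and -0.39 ± 0.26 without 3-month control replicate 2. Every KO library was lower, as for 7.66% of all genes. Its partner Abcc9 had a log2 fold change of 0.04 ± 0.17, and 0.11 ± 0.18 without that library.

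The one call among the members was with age in control retina, for the pericyte gene Rgs5. This gene, which encodes a regulator that shortens G protein signalling and is among the most used pericyte markers, was lower at 12 than at 3 months. It had 7.18, 5.72 and 5.84 CPM in 12-month control and 10.1, 9.45 and 9.10 CPM in 3-month control retina. The groups did not overlap, with 12 months lower, as for 8.29% of all genes. The log2 fold change was -0.61 ± 0.14 (SE) with adjusted p = 0.0261, and -0.62 ± 0.16 with adjusted p = 0.0335 without 3-month control replicate 2. Rgs5 was 1 of 9 tested members called, where 2.11% of all genes were called and 0.71% were called lower (2.63% were called without that library). With 3 libraries a group the call was fragile: it was lost, at adjusted p = 0.0504 to 0.145, when 3-month control replicate 1 or 3 or 12-month control replicate 2 or 3 was left out, and at 0.0786 when only the 6 control libraries were fitted.

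Other pericyte genes were lower at 12 months in control retina without passing the test. Cspg4 had 2.90, 1.85 and 1.69 CPM at 12 months and 3.70, 4.29 and 3.65 CPM at 3 months, with a log2 fold change of -0.85 ± 0.32 and adjusted p = 0.228. Kcnj8 had 2.37, 1.92 and 2.09 CPM at 12 months and 3.50, 3.22 and 3.25 CPM at 3 months, with -0.64 ± 0.23 and adjusted p = 0.212. For both genes the groups did not overlap, with 12 months lower, as for 8.29% of all genes. Abcc9 (-0.52 ± 0.17, adjusted p = 0.149) overlapped by 1 library. Pdgfrb stood outside this pattern, with 23.1, 23.6 and 22.1 CPM at 12 months and 20.4, 25.8 and 23.7 CPM at 3 months and a log2 fold change of -0.02 ± 0.12. Without 3-month control replicate 2 the changes were -0.77 for Cspg4, -0.66 for Kcnj8, -0.45 for Abcc9 and 0.06 for Pdgfrb, with adjusted p of at least 0.209. Of the 5 pericyte genes, 4 had an unadjusted p below 0.05 in the lower direction, as did 6.03% of all genes. Endothelial markers were lower in part. Of 14, 6 had such a p (3 without 3-month control replicate 2, where 7.1% of all genes did). In both settings 1 had an unadjusted p below 0.05 in the higher direction, and 0 were called. With all libraries 10 had negative changes and the median was -0.26. The part of the endothelial markers in the pericyte values was not tested. Nor was that of the skeletal muscle transcripts that the 3-month control libraries carried. In bulk tissue, a lower count of a gene does not tell fewer pericytes from less RNA of that gene per pericyte.

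For the contractile genes the same comparison rested on 3-month control replicate 2. With all libraries Acta2 had a log2 fold change of -0.94 ± 0.37 and Myh11 of -0.57 ± 0.26, both with an unadjusted p below 0.05 and adjusted p = 0.293 and 0.353. Without that library they were -0.18 ± 0.20 and -0.17 ± 0.23. Tagln was 0.01 with and 0.08 without it. The median over the 3 tested contractile genes was accordingly -0.57 with the library and -0.17 without it, whereas that over the 5 pericyte genes was -0.61 with it and -0.62 without it, beside 0.00 for all tested genes in both settings. The groups of Acta2 did not overlap with or without that library, at most 3.973 CPM at 12 months and at least 3.975 CPM at 3 months. With all libraries 8.29% of all genes were likewise lower. Notch3, which marks both classes, was at -0.287 ± 0.125 (adjusted p = 0.329) with the library and at -0.222 ± 0.132 without it. Over all 9 members, 7 had an unadjusted p below 0.05 and a negative change with all libraries, as did 6.03% of all genes. Without 3-month control replicate 2, 4 did, where the share of all genes was 7.1%.

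**Figure D2:**
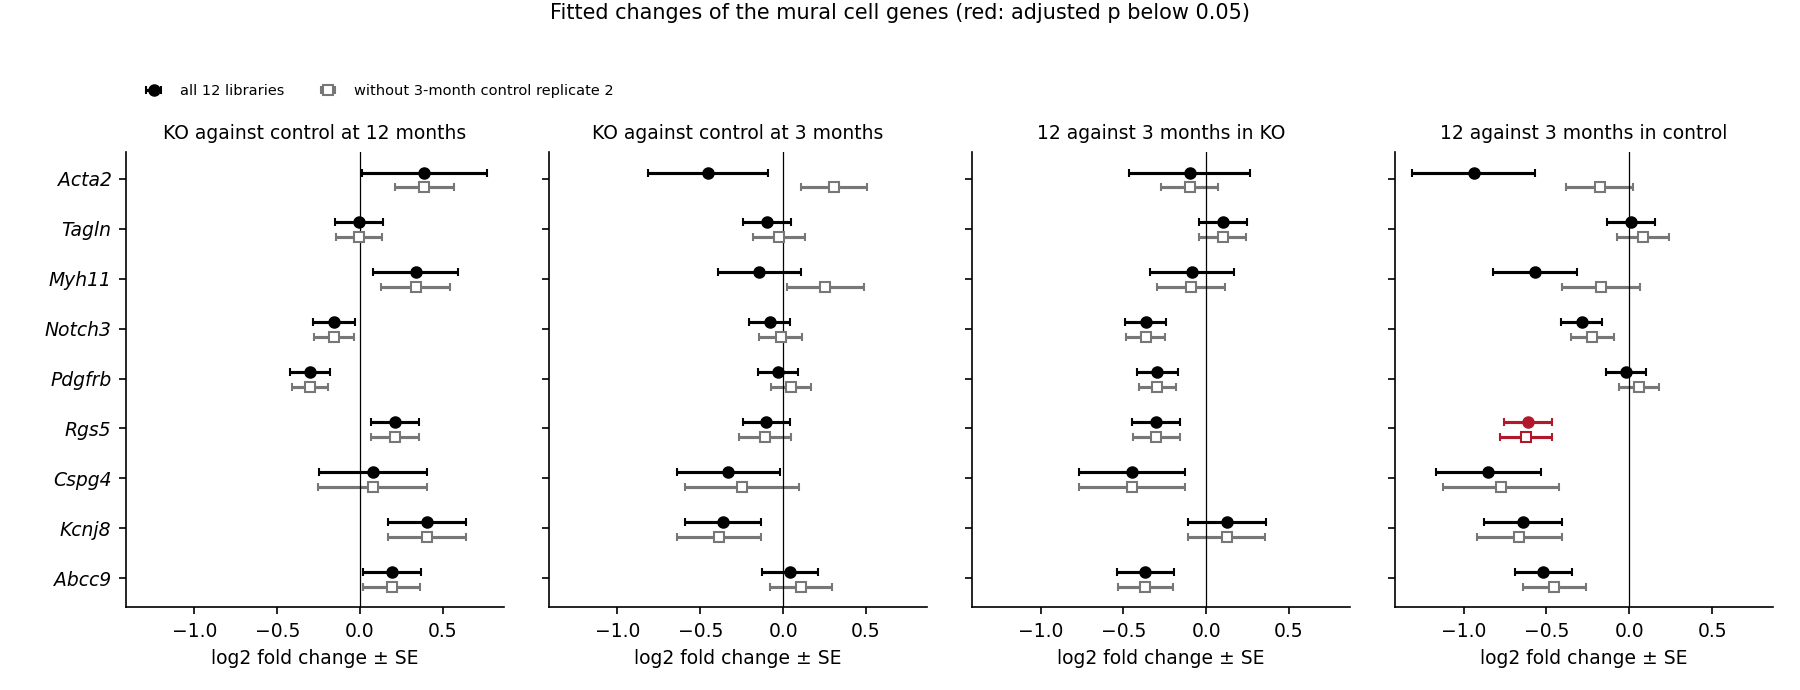
Log2 fold changes ± SE (x axis) of the 9 tested mural cell genes (rows) in 4 comparisons (panels), from edgeR on all 12 libraries (filled circles) and without 3-month control replicate 2 (open squares). Red marks an adjusted p below 0.05, which Rgs5 alone reached, between 12 and 3 months in control retina. Acta2 and Myh11 move between the 2 settings in both panels that use 3-month control retina, and the pericyte genes move less.

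In KO retina no member passed the test between 12 and 3 months, where 2.37% of all genes were called. Notch3, the receptor that keeps mural cells mature, had 8.36, 9.18 and 10.0 CPM at 12 months and 12.4, 11.4 and 11.7 CPM at 3 months. The groups did not overlap, and the log2 fold change was -0.37 ± 0.13 with adjusted p = 0.162. Abcc9 (-0.37 ± 0.17, adjusted p = 0.350) and Pdgfrb (-0.29 ± 0.12, adjusted p = 0.278) were also lower in every 12-month library, as were 11.5% of all genes. Rgs5 had 6.21, 8.54 and 6.93 CPM at 12 months and 9.18, 8.40 and 9.13 CPM at 3 months, so that 1 library overlapped, with a log2 fold change of -0.30 ± 0.14 and adjusted p = 0.374. Kcnj8 was at 0.12 ± 0.23, and at -0.03 ± 0.26 without 12-month KO replicate 1. Acta2, Tagln and Myh11 lay between -0.10 and 0.10. In all, 4 of the 9 tested members had an unadjusted p below 0.05 in the lower direction, against 6.53% of all genes. Without both libraries that stood apart, a choice made after seeing the data, 1 of the 9 did, Notch3, against 9.66% of all genes.

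Whether age acted unequally in KO and control retina is the same contrast as whether the KO effect changed with age, and edgeR called no member in it, where 0.127% of all genes were called. Before adjustment 1 of 9 had a p below 0.05, in the higher direction, against 2.25% of all genes. For Rgs5 the difference was 0.31 ± 0.20 on the log2 scale with adjusted p = 0.999, and 0.32 ± 0.21 without 3-month control replicate 2, so its call in control and lack of one in KO retina do not show that the genotypes differ. Kcnj8 had a difference of 0.77 ± 0.33, with an unadjusted p of 0.0316 and adjusted p = 0.999. Without that library Kcnj8 was at 0.79 ± 0.35 and Pdgfrb at -0.35 ± 0.16, with unadjusted p of 0.0331 and 0.0427 and adjusted p = 0.671 and 0.689. Notch3 had a difference of -0.08 ± 0.18 with all libraries and adjusted p = 0.999. The age comparisons and the KO comparisons share libraries and are not independent of one another.

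With all 12 libraries, the balance of contractile over pericyte genes within a library overlapped between the 4 groups. It was taken as the mean log2 CPM of the 4 contractile genes minus that of the 5 pericyte genes. It averaged -1.37 ± 0.23 in 12-month KO, -1.63 ± 0.13 in 12-month control, -1.57 ± 0.35 in 3-month KO and -1.60 ± 0.42 in 3-month control retina (SD, n = 3 each). The lowest and highest 3-month controls were -1.99 and -1.15, and the highest was replicate 2, without which the mean was -1.82 (n = 2). Cnn1, at few counts, takes its log2 value largely from the prior count. Without it the balance was -0.14 ± 0.34 in 12-month KO, -0.29 ± 0.06 in 12-month control, -0.40 ± 0.23 in 3-month KO and -0.42 ± 0.47 in 3-month control retina. Without replicate 2 as well, 3-month control averaged -0.69 (n = 2). Its libraries, at -0.74 and -0.64, then lay below every library of the other groups, which started at -0.57 in 3-month KO. With a prior count of 0.5 and all 4 genes, the change of the balance with age in control retina was -0.27, against -0.03. In 12-month control retina the contractile mean was 0.66 ± 0.32 and the pericyte mean 2.29 ± 0.19, against 1.22 ± 0.49 and 2.82 ± 0.07 in 3-month control retina. Pericyte means of the 3 libraries at 12 months, up to 2.51, all lay below those at 3 months, which started at 2.75, while the contractile means overlapped. In KO retina the pericyte means did not overlap either, by a smaller gap. They reached 2.58 at 12 months and started at 2.61 at 3 months. Since the members were chosen with results known, these means carry no test.

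**Figure D3:**
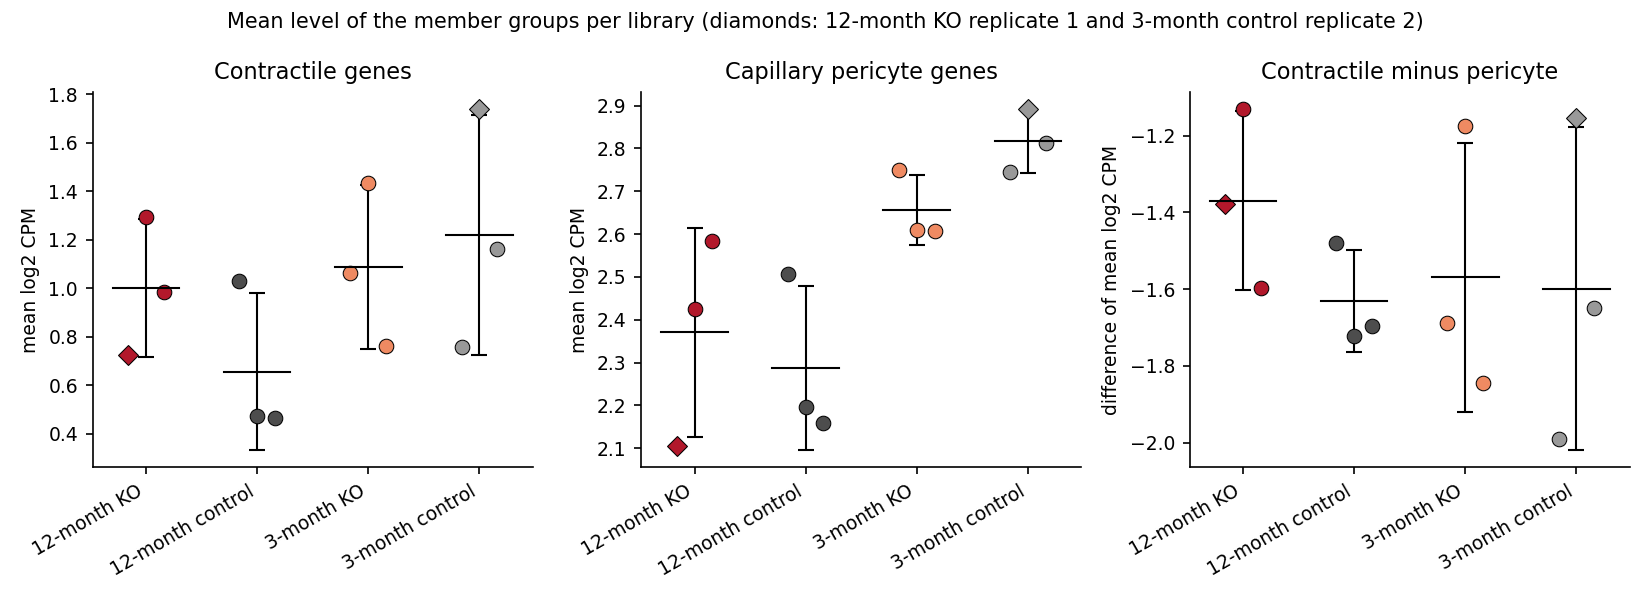
Mean log2 CPM of the 4 contractile genes, of the 5 pericyte genes, and their difference (y axes, which do not start at 0), per library by group (x axis). Points are libraries, lines are means, bars are SD (n = 3), and diamonds mark 12-month KO replicate 1 and 3-month control replicate 2. The pericyte means of 12-month control retina reach 2.51 and those of 3-month control retina start at 2.75. Those of 12-month KO retina reach 2.58 and those of 3-month KO retina start at 2.61.

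The members varied together to differing degrees, within and across the 2 classes. Over the 12 libraries Pearson's r between log2 levels was 0.88 for Acta2 with Myh11, 0.82 for Rgs5 with Abcc9 and 0.85 for Cspg4 with Notch3. Kcnj8 and Abcc9, which encode the subunits of 1 channel, had r = 0.28. The 10 pairs of pericyte genes ran from -0.24 to 0.82, and the 23 pairs across classes or with Notch3 from -0.23 to 0.85. Without 3-month control replicate 2 the r of Acta2 with Myh11 was 0.73 and that of Acta2 with Tagln moved to -0.01 against 0.34 with it, and the pericyte pairs ran from -0.38 to 0.80. These are descriptions over libraries that share groups and ages.

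Among 13421 named genes of at least 1 CPM, those most like the mean of the pericyte genes over the 12 libraries included Daam2 (r = 0.957), Sf3b3 (0.953), Col2a1 (0.941) and Spred3 (0.919), and Daam2, Sf3b3 and Col2a1 were still among the first 5 without 3-month control replicate 2. Those most like the contractile mean were Fbl (0.875), Epha2 (0.869), Rap2b (0.857), Pold2 (0.850) and Yipf2 (0.846). All 5 were highest in 3-month control replicate 2, as were Daam2, Sf3b3 and Col2a1 but not Spred3. None of the 5 genes most like the contractile mean was among the first 5 without that library, when Sspn led with r = 0.854.

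**Figure D4:**
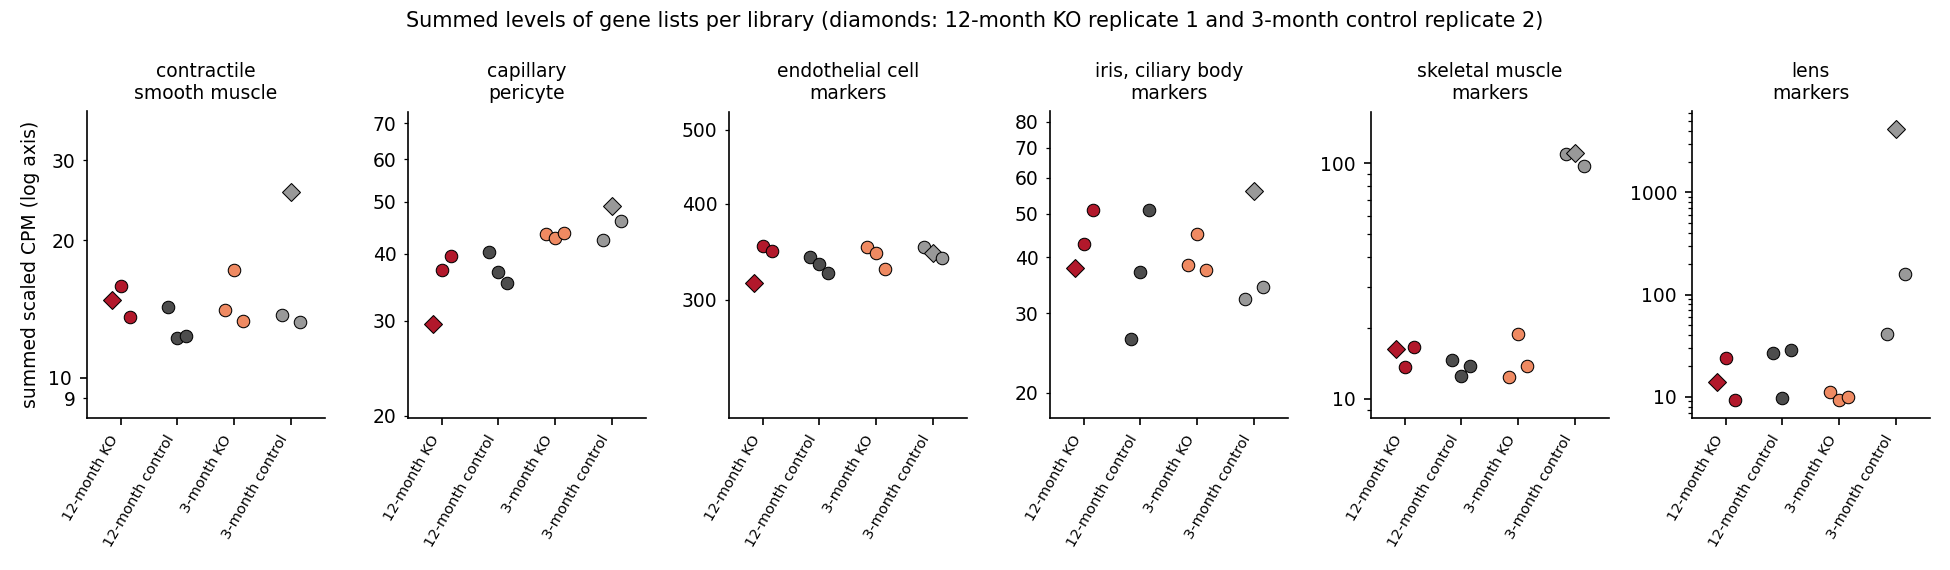
Summed scaled CPM (y axes, log scale) of the contractile and pericyte genes and of 4 marker lists in each library, by group (x axis). Diamonds mark 12-month KO replicate 1 and 3-month control replicate 2. That control library has the highest contractile sum, 25.6 CPM, pericyte sum, 49.1 CPM, and lens sum, 4121 CPM. Its pericyte sum is near the next highest, 46.0 CPM. All 3 controls of 3 months stand above the other 9 libraries in skeletal muscle markers.

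Other genes of the same cells and pathways were taken from lists. Of 18 other smooth muscle genes, 15 were tested. Desmin (Des) and tropomyosin 2 (Tpm2) fell in KO against control retina at 3 months, by 1.19 and 2.15 on the log2 scale with adjusted p = 0.00856 and 4.79e-06, and fell with age in control retina by 1.89 and 1.77. Without 3-month control replicate 2 the first calls had adjusted p = 0.0189 and 5.92e-06. Synpo2, named after its values were seen, was not called with age in control retina (adjusted p = 0.116) and was called higher without that library, at 0.37 with adjusted p = 0.0455. The first call of Des was lost without 3-month KO replicate 1 or 3 (adjusted p = 0.104 and 0.0895). Both are also made by skeletal muscle, and like the skeletal actin Acta1, at 2.56 ± 0.21 CPM in 3-month KO and 15.9 ± 2.12 CPM in 3-month control retina, they were high in the 3 libraries that carried the skeletal muscle markers. The part of those markers was not tested. Mylk, the kinase that switches on smooth muscle myosin, fell with age in KO retina by 0.58 with adjusted p = 0.00565, to 86.8 ± 17.2 CPM at 12 months against 129 ± 5.95 CPM at 3 months.

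Of 18 other pericyte genes, 17 were tested and none passed in any of the 5 comparisons by edgeR. In the age comparison in control retina, 3 of the 17 had an unadjusted p below 0.05, all lower, as did 6.03% of all genes. The median log2 fold change of the 17 was -0.09 with and without 3-month control replicate 2. By 2 of 23 alternatives Ndufa4l2, a mitochondrial subunit used as a pericyte marker, was called there. The list's most abundant genes, Gucy1a1 and Gucy1b1, encode subunits of a nitric oxide receptor. They averaged 158 and 78.8 CPM, against 21.9 CPM for Pdgfrb, and which retinal cells made these transcripts was not tested. With age in control retina they had log2 fold changes of 0.07 ± 0.07 and -0.01 ± 0.08. Of the 13 genes of PDGF-B and Notch signalling, Hes1, a target of Notch, rose with age in control retina by 0.60 with adjusted p = 0.0160, to 27.5 ± 3.95 CPM at 12 months against 18.2 ± 1.42 CPM at 3 months. It was 0.66 with adjusted p = 0.0156 without 3-month control replicate 2. Its call was lost without 3-month control replicate 1 or 3 or 12-month control replicate 3, at adjusted p = 0.0607 to 0.124. With all libraries Hes1 was the only call of this list. Without 3-month control replicate 2, 1 gene of the list was called higher in KO at 12 months and 1 higher in KO at 3 months. In that setting 1 was also called lower with age in KO retina. Of all 16707 genes, 81, 11 and 320 were called in these directions. Of the 14 endothelial markers, Ptprb, a phosphatase that restrains the receptor TIE2, fell with age in KO retina by 0.60 with adjusted p = 0.00872, and with 0.0705 without 3-month KO replicate 2. Of 6 tested fibroblast markers, decorin (Dcn) rose with age in KO retina by 1.46 with adjusted p = 0.0488, and was called in 10 of 23 alternative fits. It lost its call in 10 of the 12 fits that left out 1 library, all but those without 3-month control replicate 2 or 12-month KO replicate 3.

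Reads could be shared or misplaced at few of these genes. In windows of 100 bases, no part of the longest transcript of any member was found in the transcripts of another gene, and in windows of 50 bases 0.352% of Acta2 and 0.400% of Myh11 was, with the actin Actg1 and the myosins Myh9 and Myh10, besides 0.698% of Abcc9 and 0.0879% of Notch3. Tagln overlaps Pcsk7 and an antisense transcript, and Abcc9 and Notch3 each overlap an antisense transcript, so that these 3 are uncertain where strand was not used in counting. The sources used here do not give the strand setting of the counting.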

How the data were processed

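RNA from retina was made into stranded poly(A) libraries, per the labels' protocols. Per the submitters' processing notes, the authors used HISAT2 2.1.0, featureCounts 1.6.4 and DESeq2 1.22.1 with GRCm38. For each library the authors deposited raw counts by Entrez ID. Their other deposited table, of the 12-month comparison, has no header, and its columns were read as the mean normalized signal, the log2 fold change with its standard error, the Wald score, and the p-value before and after adjustment. Low counts were even in 60.7% to 70.2% of cases, so reads of a pair may have been counted separately.

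Counts were analysed with edgeR 4.0.16 in R 4.3.3. Filtering with filterByExpr left 16475 of 27179 IDs. TMM scaling and a robust quasi-likelihood fit used 1 coefficient per group over all 12 libraries (common biological variation 0.11, as a coefficient). CPM are counts scaled to library size by TMM, and log2 CPM used a prior count of 2. The fit was tested on simulated data. Alternatives were other scalings and filters, DESeq2 1.42.0, limma 3.58.1 with voom, halved counts, the replicate number as a block, the 6 libraries compared, and each library left out.

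The members, lists and tests were chosen with earlier results of these data known. All members were named, with, from each companion list, up to 4 genes that passed or the 2 most abundant, and the 5 genes most like each class, of which 1 is not reported here. Of the blood marker list, 1 gene had no count row, and the summed blood and oligodendrocyte markers, 3.04 to 11.7 CPM and 79.0 to 88.8 CPM, are not used further.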

Additional observations from a re-analysis of the deposited data

How the results depend on the processing

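Over 23 alternative fits, 1021 of 1026 results for single members kept their call, 0 were newly called and 5 lost it. All 5 were Rgs5 with age in control retina. The number of members called there was 1, and became 0 with only the 6 libraries compared and 0 to 1 when each library was left out. In the other 4 comparisons it was 0 throughout. Signs of uncalled values turned in at least 1 alternative for Tagln and Cspg4 in KO at 12 months, Acta2, Myh11, Pdgfrb and Abcc9 in KO at 3 months, Acta2, Myh11 and Kcnj8 with age in KO, Tagln and Pdgfrb with age in control, and Notch3 in the difference.

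The counts of all genes called moved more. With DESeq2 they were 127, 63, 592, 571 and 41 for KO at 12 months, KO at 3 months, age in KO, age in control and the difference, and with voom 186, 79, 1319, 773 and 50, beside 35, 37, 390, 347 and 21. Without a filter KO at 12 months gave 64, and with 6 libraries age in control gave 198. Leaving out each library gave 13 to 166, 21 to 41, 187 to 717, 201 to 479 and 14 to 29. Leaving out both libraries that stood apart, a choice made after seeing the data, gave 421, 58, 1069, 1040 and 50, and Abca1 was then higher in KO at 12 months by 0.41 on the log2 scale with adjusted p = 0.0149. The causes were not tested.

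Same-numbered libraries correlated at -0.08 to 0.14 in their deviations from group means, so the numbers do not pair them. With the replicate block the counts were 40, 38, 368, 317 and 22, and Rgs5 kept its call with adjusted p = 0.0433.

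Cnn1, with 0 to 8 counts, and Cspg4, with 30 to 128, are limited by depth.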
